A study of Mus musculus with 6 samples.

Results

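The high-affinity IgE receptor and 3 kindred genes were followed in RNA from mouse fetal liver cells in which Arid3a, which encodes an AT-rich DNA-binding factor, was induced. The set held 6 of the 53801 genes counted: the receptor chains Fcer1a (alpha), Ms4a2 (beta) and Fcer1g (gamma), the MS4A family member Ms4a3, and the mast cell genes Cpa3 and Adora3. These genes were chosen by name, with their counts in the LUC and Arid3a-FLAG libraries already known. Their differences between the groups are therefore given as a description, without p-values.

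All 6 libraries came from fetal liver cells at E12.5-13.5, of a B6J.129(Cg) strain, Fezh/J, whose Gt(ROSA)26Sor locus (allele tm1.1) bears the insert CAG-cas9*,-EGFP. It therefore makes Cas9 and a green fluorescent protein. All cells bore the transgenes sgGata1 (by its name, a guide against Gata1) and miR-125b, and all received doxycycline at 1 μg/mL for 48 h. The groups differed in the doxycycline-inducible transgene, LUC in 3 libraries and Arid3a-FLAG in the other 3. The titles call the cells Gata1s, the name of the truncated GATA1 protein, and there was no group without the guide, without miR-125b or without doxycycline. The labels do not say how many embryos, cultures or transductions stand behind the replicates, so p-values measure only the spread between these libraries, which may be technical.

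The IgE receptor is an assembly of chains with separate tasks. The alpha chain binds IgE outside the cell, the beta chain crosses the membrane several times and amplifies the signal, and a pair of gamma chains carries it inward through the ITAM, a tyrosine motif that recruits the kinase SYK. In mice the alpha and beta chains are found together mainly on mast cells and basophils. The gamma chain is shared: IgG receptors, the platelet collagen receptor GPVI and several C-type lectins of myeloid cells use the same protein. Ms4a3, a relative of the beta chain, is known from granulocyte and monocyte precursors. Cpa3 encodes the carboxypeptidase A of mast cell granules, and Adora3 an adenosine receptor that enhances mast cell degranulation.

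Ms4a2 (ENSMUSG00000024680) and Ms4a3 (ENSMUSG00000024681) lie side by side on the minus strand of chromosome 19 in mm10, from 11615523 to 11623719 and from 11629496 to 11640851, with 5776 bases between them. Fcer1g (ENSMUSG00000058715, 171229572 to 171234365) and Fcer1a (ENSMUSG00000005339, 173221284 to 173227214) are both on the minus strand of chromosome 1, 1986918 bases apart. Cpa3 (ENSMUSG00000001865) occupies 20215620 to 20242181 on the minus strand of chromosome 3, and Adora3 (ENSMUSG00000000562) 105870858 to 105908926 on its plus strand. No other annotated gene shared exon bases with 5 of the 6. Adora3 shares 779 exon bases with Tmigd3 on the same strand, and the sources used here do not say how reads in that stretch were assigned. Tmigd3 itself had 12 to 45 counts per library.

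The stretches just before the transcript starts of the 3 chains and of Cpa3 are shown, GATA factors being known regulators of mast cell genes. The unique chains and Cpa3 were lower with Arid3a-FLAG. So was Ms4a3, whose stretch, like that of Adora3, was searched but is not printed. Each is the 250 bases before the start in RefSeq's GRCm38.p6 annotation, read 5′ to 3′ on the gene's strand. Capitals mark GATA words, that is AGATAA or AGATAG or TGATAA or TGATAG, on either strand.
Fcer1a, chr1:173227230-173227479, minus strand: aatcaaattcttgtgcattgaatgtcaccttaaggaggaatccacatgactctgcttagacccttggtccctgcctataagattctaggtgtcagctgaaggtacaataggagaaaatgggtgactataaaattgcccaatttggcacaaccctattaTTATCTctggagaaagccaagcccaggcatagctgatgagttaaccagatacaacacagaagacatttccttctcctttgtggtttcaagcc
Ms4a2, chr19:11623720-11623969, minus strand: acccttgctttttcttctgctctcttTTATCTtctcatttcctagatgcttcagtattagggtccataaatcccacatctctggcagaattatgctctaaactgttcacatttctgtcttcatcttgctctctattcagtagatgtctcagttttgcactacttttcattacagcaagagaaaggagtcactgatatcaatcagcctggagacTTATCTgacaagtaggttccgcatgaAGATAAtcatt
Fcer1g, chr1:171234350-171234599, minus strand: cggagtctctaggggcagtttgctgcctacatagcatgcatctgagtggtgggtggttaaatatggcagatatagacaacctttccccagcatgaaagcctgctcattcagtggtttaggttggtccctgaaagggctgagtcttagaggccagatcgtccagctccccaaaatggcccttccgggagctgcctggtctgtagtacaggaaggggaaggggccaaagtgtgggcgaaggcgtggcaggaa
Cpa3, chr3:20242182-20242431, minus strand: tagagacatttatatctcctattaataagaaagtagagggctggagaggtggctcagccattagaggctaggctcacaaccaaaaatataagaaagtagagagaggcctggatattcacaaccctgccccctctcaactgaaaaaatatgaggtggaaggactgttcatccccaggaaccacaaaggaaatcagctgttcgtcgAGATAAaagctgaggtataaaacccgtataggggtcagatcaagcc

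The words were searched in windows of 300 bases, the 250 before the start and 50 from it. Ms4a2 held 3 GATA words, at 224 to 219, 37 to 32 and 11 to 6 bases before the start. Fcer1a held 1, at 92 to 87 bases before it, and Cpa3 held 1, at 46 to 41. Adora3 held 2, whereas Fcer1g and Ms4a3 held none. At least 1 such word stood in 29.8% of the 32851 windows of all genes, and 2 or more in 7.77%. The AT-rich words ATTAAA or ATCAAA, taken as ARID3A-type, occurred in 1 of the 6 windows, that of Fcer1a, against 22.9% of all windows. The ETS words GAGGAA or CCGGAA stood once each in Fcer1a, Fcer1g, Ms4a3 and Adora3 and not in Ms4a2 or Cpa3 (39.3% of all windows). The E-box, CANNTG, was found in every window but that of Ms4a2 (72.3% of all windows). None of these words overlapped a word of another kind. GATA words were thus present in both unique chains and Cpa3, absent from Fcer1g and Ms4a3, and present in Adora3. The windows of Ms4a2, Fcer1a, Cpa3 and Adora3 were 41.0, 43.7, 43.3 and 48.3% G or C. Those of Fcer1g and Ms4a3 were 55.7 and 44.7%, and the median of all windows was 52.7%. The part of base composition in the presence of these words was not tested. Nor was a part of GATA words in the differences between groups.

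The libraries held 15730908 to 18249053 counts. The construct entry for Arid3a with its FLAG tag had 2758 to 3348 counts in the Arid3a-FLAG libraries and 0 in each LUC library. LUC library 2 stood apart from the other LUC libraries: over genes, the chi-square per degree of freedom was 29.9 and 34.0 against them, 7.88 between those other libraries, and 4.89 to 6.91 between Arid3a-FLAG libraries. Of 13631 genes tested with edgeR's quasi-likelihood test at a Benjamini-Hochberg adjusted p under 0.05, 467 were higher and 527 lower with Arid3a-FLAG, that is 7.29% in all, 3.43% higher and 3.87% lower. Without LUC library 2 the counts were 1191 higher and 1095 lower, and without Arid3a-FLAG library 1 they were 115 and 118, without Arid3a-FLAG library 2 131 and 163, without Arid3a-FLAG library 3 209 and 356, and without LUC library 1 189 and 239. All 6 members passed the filter on low counts.

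Levels are CPM, a gene's counts relative to all counts of its library, after TMM scaling, which sets a factor per library that centres the bulk of genes. Fcer1a stood at 680.1, 859.7 and 704.6 CPM in LUC libraries 1 to 3 and at 304.1, 257.4 and 390.6 CPM in Arid3a-FLAG libraries 1 to 3. Every Arid3a-FLAG library lay below every LUC library. The means were 748.2 ± 97.4 and 317.4 ± 67.6 CPM (SD, n = 3). Arid3a-FLAG thus left 42.4% of the LUC level, and the log2 fold change was -1.24 (SE 0.16).

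Ms4a2 had 280.5, 253.5 and 285.7 CPM in the LUC group, against 75.3, 74.7 and 131.3 CPM in the Arid3a-FLAG group. The groups did not overlap, and Arid3a-FLAG library 3 was the highest of its group, as it was for Fcer1a. The log2 fold change was -1.54 (SE 0.19), or 34.3% of the LUC level. The coefficient of variation of Ms4a2 was 6.33% among LUC libraries and 34.7% among Arid3a-FLAG libraries.

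The shared chain Fcer1g lay nearer its LUC level. It stood at 145.0, 194.5 and 165.0 CPM in LUC libraries and at 129.8, 129.4 and 148.5 CPM after Arid3a-FLAG induction. Here the groups overlapped, because Arid3a-FLAG library 3 exceeded LUC library 1. The log2 fold change was -0.31 (SE 0.12), or 80.8% of the LUC level, and it was -0.18 without LUC library 2, the library with the highest Fcer1g.

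**Figure D1:**
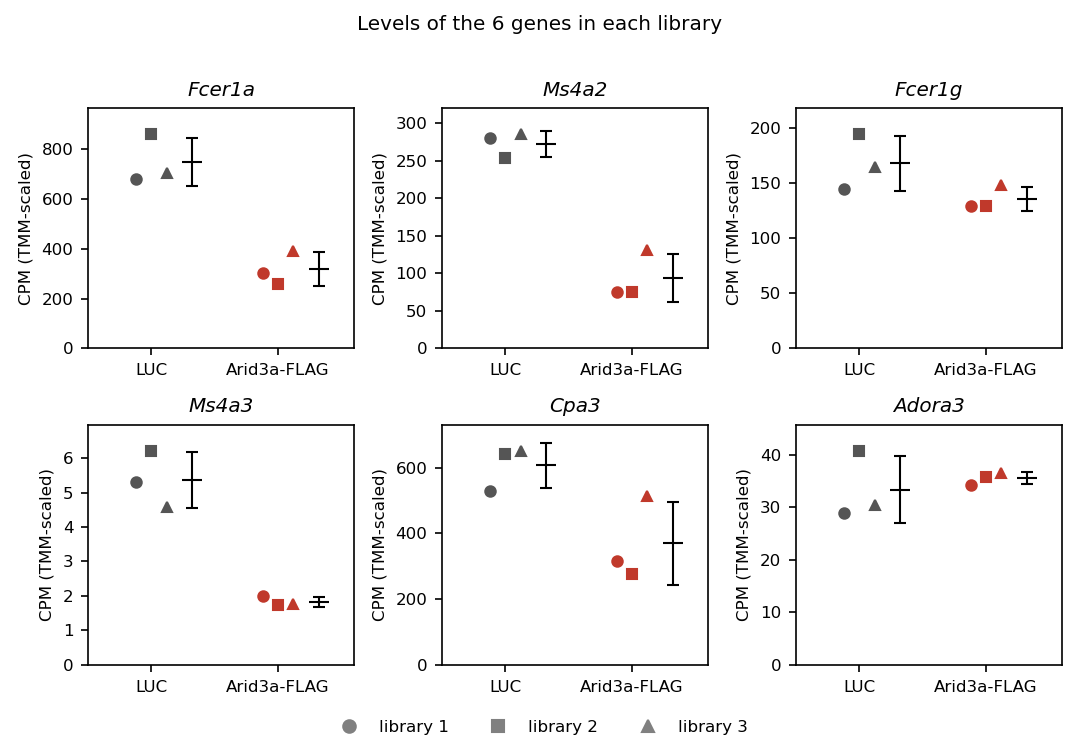
Levels of the 6 genes in TMM-scaled CPM, 1 panel per gene with its own vertical axis from 0; grey points are LUC libraries, red points Arid3a-FLAG libraries, and the bar beside each group gives mean and SD. The groups are fully separated for Fcer1a, Ms4a2, Ms4a3 and Cpa3 and overlap for Fcer1g and Adora3.

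Ms4a3, the neighbour of Ms4a2, was scarce. It had 92, 95 and 85 counts in the LUC libraries and 32, 30 and 28 counts with Arid3a-FLAG, or 5.32, 6.21 and 4.59 CPM against 1.99, 1.74 and 1.76 CPM. The groups did not overlap. Its log2 fold change of -1.55 (SE 0.22) left 34.2% of the LUC level, next to 34.3% for Ms4a2. Arid3a-FLAG library 3, high for the receptor chains, was not high for Ms4a3.

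Cpa3 stood at 528.5, 641.3 and 651.1 CPM in LUC libraries, and at 317.3, 276.5 and 514.0 CPM in those with Arid3a-FLAG. The groups were separated only narrowly, Arid3a-FLAG library 3 lying just under LUC library 1. The log2 fold change was -0.72 (SE 0.20), or 60.8% of the LUC level. It was -1.03 without Arid3a-FLAG library 3 and -0.55 without Arid3a-FLAG library 2. In the Arid3a-FLAG group the construct was at 209.0, 178.9 and 175.3 CPM without TMM scaling, lowest in library 3. The part of construct level in these differences was not tested.

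Adora3 did not separate the groups. It had 28.8, 40.7 and 30.5 CPM with LUC, then 34.3, 35.7 and 36.5 CPM under Arid3a-FLAG. The LUC libraries spanned the whole Arid3a-FLAG range. The log2 fold change was 0.09 (SE 0.13). With the Tmigd3 counts added, an alternative chosen after seeing the data, it was also 0.09.

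In all, 3 of the 6 members passed the threshold in the lower direction (Fcer1a, Ms4a2 and Ms4a3), beside 3.87% of all tested genes, and 4 of 6 lay lower in every Arid3a-FLAG library than in every LUC library, beside 16.5%. Since the genes were picked with this contrast known, nothing is read from these counts. In bulk RNA, fewer cells of a type and less RNA per cell cannot be told apart.

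Levels of different genes were compared per length, as reads per kilobase of exon scaled to 1 common sum in all libraries (TPM). In LUC libraries Fcer1a was highest at 2080 ± 22.7 TPM, followed by Cpa3 at 1117 ± 138, Fcer1g at 533.5 ± 30.7, Ms4a2 at 273.6 ± 47.8, Adora3 at 24.7 ± 1.62 and Ms4a3 at 7.91 ± 0.639 (SD, n = 3). No neighbours in that order overlapped between libraries. With Arid3a-FLAG the order of means was the same: 973.4 ± 203.0 TPM for Fcer1a, 745.0 ± 254.0 for Cpa3, 476.2 ± 37.6 for Fcer1g, 102.1 ± 35.2 for Ms4a2, 29.2 ± 1.10 for Adora3 and 2.97 ± 0.199 for Ms4a3. There the ranges of Fcer1a, 798.7 to 1196 TPM, and Cpa3, 564.5 to 1035 TPM, overlapped between libraries. Within each library Fcer1a was the higher: 925.3 against 635.1, 798.7 against 564.5 and 1196 against 1035 TPM in libraries 1 to 3. By mean TPM, Fcer1a ranked 49 among all genes with LUC and 131 with Arid3a-FLAG, while Fcer1g ranked 248 and 282 and Ms4a2 554 and 1836.

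The unique chains were then set against the shared chain inside each library, a ratio in which library scaling cancels. Per length there were 4.11, 3.87 and 3.74 Fcer1a reads for each Fcer1g read with LUC and 2.05, 1.74 and 2.30 with Arid3a-FLAG. The log2 ratio differed by -0.95 (SE 0.12), a 1.93-fold shift, with no overlap between groups. For Ms4a2 the ratios were 0.601, 0.405 and 0.538 with LUC against 0.180, 0.179 and 0.275 with Arid3a-FLAG, a log2 difference of -1.29 (SE 0.27) and again without overlap. Both unique chains thus stood lower against the gamma chain in every Arid3a-FLAG library than in any LUC library. The share of all genes that separate the groups in this ratio was not computed. The chains were chosen with their counts known, so this is a description only.

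Among the other members, Ms4a3 differed relative to Fcer1g by -1.25 on the log2 scale (SE 0.16), with 0.0129 to 0.0170 reads per Fcer1g read by length in LUC libraries and 0.00549 to 0.00710 with Arid3a-FLAG. Cpa3 differed by -0.46 (SE 0.22), but its ratios of 1.90 to 2.27 and 1.23 to 1.99 overlapped. The ratio of Adora3 moved the other way, from 0.0433 to 0.0491 with LUC to 0.0577 to 0.0647 with Arid3a-FLAG. The log2 difference was 0.41 (SE 0.07). Fcer1g itself had a log2 fold change of -0.31 (SE 0.12), which raises this ratio. That of Adora3 was 0.09 (SE 0.13), and its CPM overlapped between groups. The balance of alpha to beta chain did not separate the groups: Fcer1a exceeded Ms4a2 per length by 6.84, 9.56 and 6.95 times with LUC and by 11.4, 9.71 and 8.38 times with Arid3a-FLAG.

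**Figure D2:**
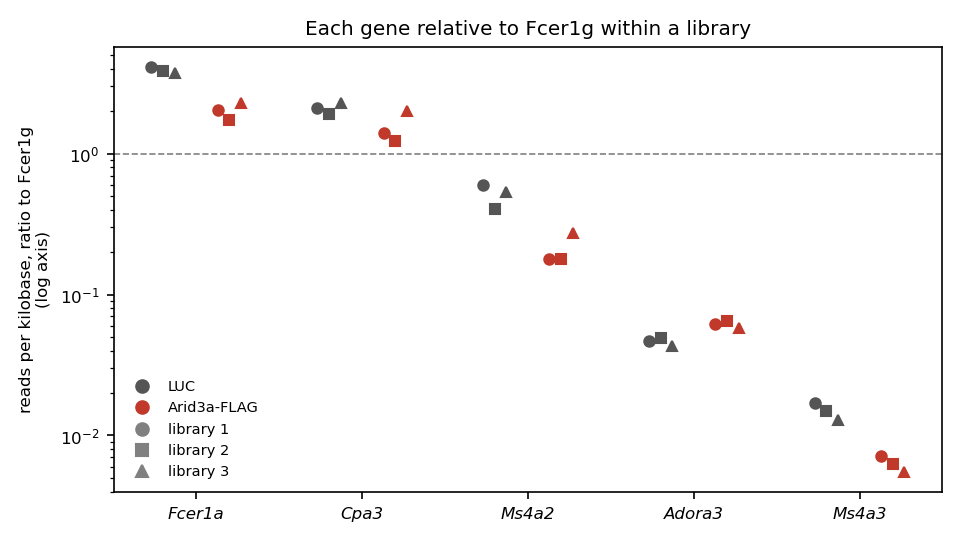
Reads per kilobase of 5 genes divided by those of Fcer1g in the same library, on a log axis; grey is LUC, red is Arid3a-FLAG, and the dashed line marks equality with Fcer1g. The ratios of Fcer1a, Ms4a2 and Ms4a3 lie lower in all Arid3a-FLAG libraries than in all LUC libraries. That of Adora3 lies higher and that of Cpa3 overlaps. The CPM of Adora3 itself overlapped between groups.

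The receptors that use the gamma chain were mostly scarce. Of 17 listed, 7 were tested, 2 fell, none rose and 5 did not pass (numbers in brackets are log2 fold changes). Among all tested genes 3.87% fell and 3.43% rose. Clec4e, the lectin Mincle, stood at 23.1 ± 6.47 CPM with LUC and fell to 4.56 ± 1.88 CPM (-2.35, SE 0.27, adjusted p = 0.00091), and Clec4d, its relative, from 27.4 ± 6.504 to 13.9 ± 1.402 CPM (-0.98, SE 0.17, adjusted p = 0.0082). The call of Clec4d stood at an adjusted p of 0.050 without Arid3a-FLAG library 1. Gp6, the platelet collagen receptor GPVI, had 5.09 ± 0.958 and 7.46 ± 0.986 CPM (0.56, adjusted p = 0.110). The IgG receptors Fcgr3 (7.30 ± 1.49 and 6.24 ± 1.69 CPM) and Fcgr1 (2.26 ± 0.835 and 2.04 ± 0.499 CPM) did not pass, and Fcgr4 had at most 2 counts. Of other signalling adaptors, the ITAM-bearing Tyrobp (15.7 ± 3.75 and 11.4 ± 3.17 CPM) and Hcst, which encodes DAP10 and has no ITAM (5.38 ± 0.933 and 3.68 ± 0.583 CPM), did not pass.

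Among other Fc receptors, Fcgr2b, the inhibitory IgG receptor that restrains IgE signalling in mast cells, fell. It had 108.7, 95.02 and 144.8 CPM in LUC libraries and 35.5, 37.4 and 61.5 CPM in Arid3a-FLAG libraries. This amounts to -1.38 on the log2 scale (SE 0.21, adjusted p = 0.0047). Its levels did not overlap between groups, and Arid3a-FLAG library 3 was again the highest of its group. Fcer2a, the low-affinity IgE receptor of B cells, averaged 0.0373 and 0.0596 CPM and was not tested.

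Of the MS4A family and its TMEM176 relatives, 19 genes besides Ms4a2 and Ms4a3 were in the table and 3 were tested. Only Tmem176b passed, falling from 83.5 ± 8.07 to 56.5 ± 7.43 CPM (-0.56, adjusted p = 0.019), and this call was lost without Arid3a-FLAG library 1 or 2 (adjusted p up to 0.105). Tmem176a (-0.36) and Ms4a6d (-1.08, from 1.04 ± 0.116 CPM) did not pass. There were 0 counts in every library for 10 of the family, including Ms4a1, which encodes the B cell antigen CD20.

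Signalling genes downstream of the receptor moved in both directions, as did all tested genes, of which 3.43% rose and 3.87% fell. Of 42 tested activating members, 4 rose, 1 fell and 37 did not pass, with a median log2 fold change of 0.06 against -0.03 over all tested genes. The kinases closest to the receptor did not pass: Lyn, which phosphorylates the ITAM, had 63.4 ± 3.39 and 62.9 ± 3.29 CPM, Fyn 131.7 ± 7.86 and 146.3 ± 5.03, and Syk 132.3 ± 20.7 and 165.8 ± 7.09. The scaffold Lat had 343.6 ± 54.9 and 367.8 ± 3.64 CPM. Lyn, Fyn, Syk and Lat, as well as Pdpk1, Gzmb, Cyp11a1, Kit, Hdc, Gata2, Adora2a and Adora2b below, were named after their values were seen.

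The activating genes that rose were Grap2, an adaptor of the LAT complex (0.62, SE 0.08, adjusted p = 0.0023), Prkca, protein kinase C alpha (0.56, adjusted p = 0.0051), Fgr, a SRC family kinase (1.18, from 1.81 ± 0.391 CPM, adjusted p = 0.018), and Pdpk1, the kinase that activates AKT (0.51, adjusted p = 0.023). The one that fell was Rasgrp4, a RAS exchange factor of mast cells, from 19.3 ± 1.71 to 12.1 ± 1.75 CPM (-0.67, adjusted p = 0.021). Grap2 and Prkca kept their calls in each of 6 fits with 1 library left out. Fgr lost its call in 3 of those fits, and Pdpk1 and Rasgrp4 in 4 each (adjusted p up to 0.114).

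Of 19 members listed as inhibitory, 2 rose, 1 fell and 16 did not pass, with a median of 0.06. The listing is from general knowledge, and whether each gene, Ptpn11 among them, restrains the signal in these cells was not tested. Ptpn11, the phosphatase SHP2, rose from 301.7 ± 29.7 to 477.1 ± 9.82 CPM (0.66, SE 0.10, adjusted p = 0.0044), with every Arid3a-FLAG library above every LUC library. Pag1, an adaptor that holds CSK at the membrane, rose by 0.49 (adjusted p = 0.026, and as high as 0.119 when a library was dropped), and Fcgr2b is the gene that fell. Lilrb4a, an inhibitory receptor of mast cells, had 279.6 ± 104.4 and 135.4 ± 45.1 CPM and did not pass (-1.05, adjusted p = 0.054). Without LUC library 2, 11 activating genes rose and 4 fell, and 5 inhibitory genes rose and 3 fell. Leaving out Arid3a-FLAG library 1, Arid3a-FLAG library 2 or LUC library 1, 2 activating genes rose and 0 fell, and 1 inhibitory gene rose. Without LUC library 3, 0 activating genes fell and 4 inhibitory genes rose, and without Arid3a-FLAG library 3, 1 inhibitory gene rose and 2 fell.

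**Figure D3:**
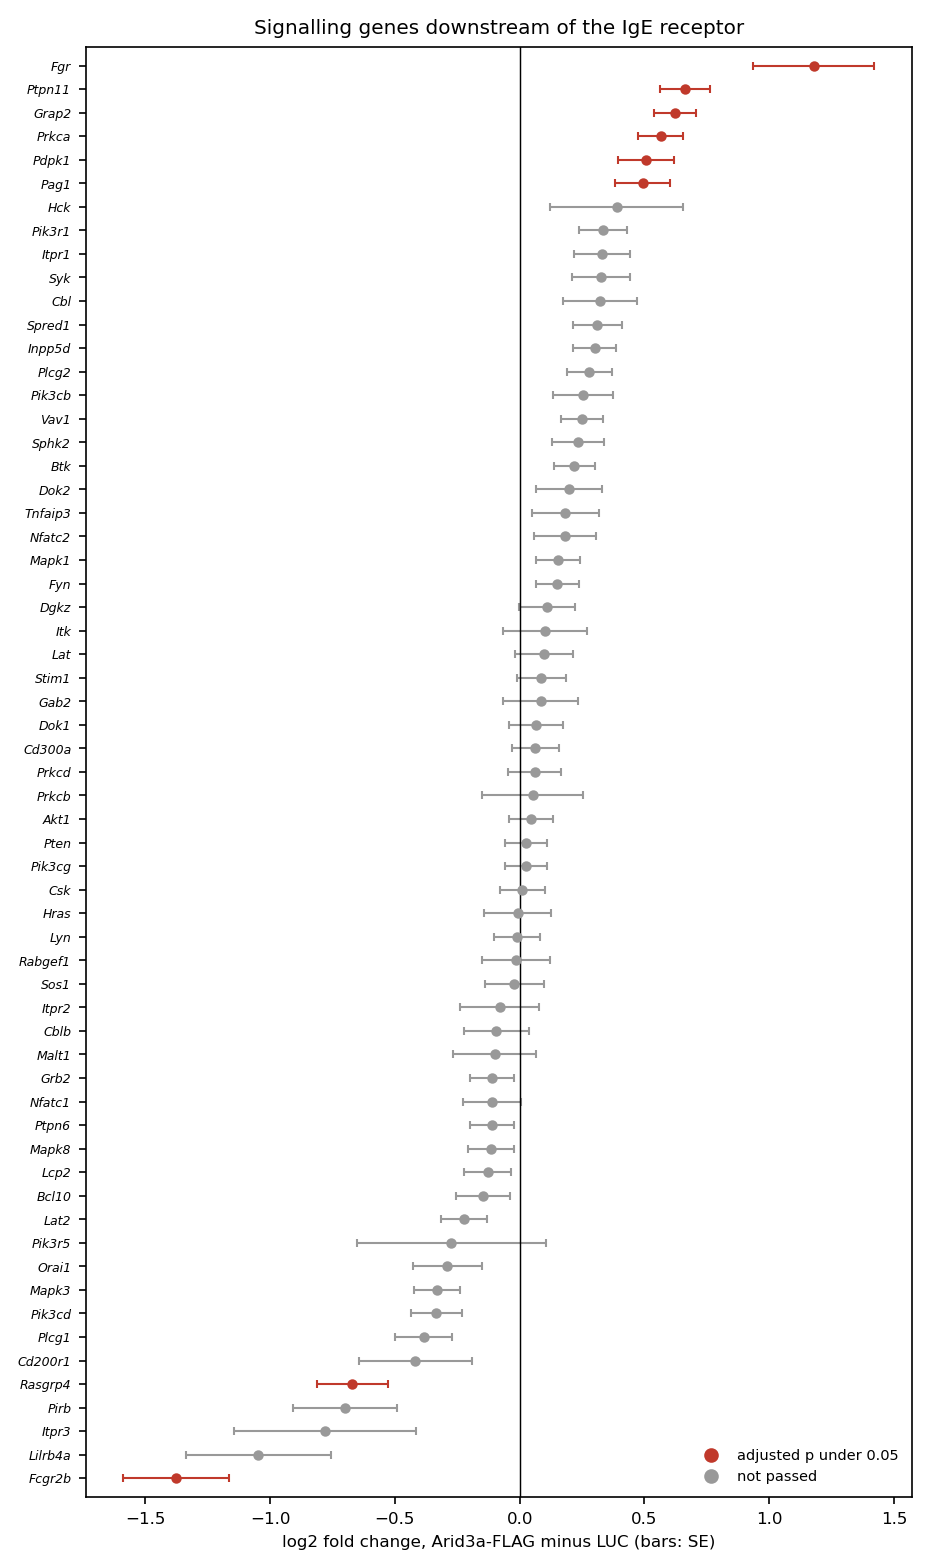
Log2 fold changes (Arid3a-FLAG minus LUC, bars SE) of the 61 tested signalling genes of the IgE receptor, activating and inhibitory together; red passed the adjusted threshold and grey did not. Most points lie near 0, 6 red points lie above it and 2, Rasgrp4 and Fcgr2b, below.

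Other mast cell and basophil genes moved in both directions. Of 33 tested, 2 rose, 5 fell and 26 did not pass, with 23 below 0 and a median log2 fold change of -0.29. Over all tested genes 3.43% rose and 3.87% fell, with a median of -0.03. The share of all tested genes below 0 was not computed. The largest difference was that of Mcpt8, a basophil protease, at 49.98, 70.2 and 50.8 CPM in LUC libraries and 9.56, 6.73 and 15.5 CPM in Arid3a-FLAG libraries (-2.43, SE 0.25, adjusted p = 0.00051). Srgn, the granule proteoglycan serglycin, fell from 450.9 ± 80.8 to 265.9 ± 13.3 CPM (-0.76, adjusted p = 0.0071). Il3ra, the alpha chain of the interleukin 3 receptor, fell by 0.76 on the log2 scale (adjusted p = 0.019). Gzmb, granzyme B, fell by 0.87 and Cyp11a1, a steroid synthesis enzyme, by 0.81. Calls were lost with 1 library left out for Srgn (1 of 6 fits), Il3ra (2), Gzmb (4) and Cyp11a1 (4), with adjusted p up to 0.179. Mcpt8 kept its call in all 6.

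The genes of this list that rose were Slc6a4, the serotonin transporter (0.85, SE 0.13, adjusted p = 0.0051), and Ptgs1, cyclooxygenase 1 (0.41, adjusted p = 0.027), both also expressed in the megakaryocyte line. Ptgs1 lost its call in 4 of 6 fits with 1 library left out. Several genes of this list did not pass, some near their LUC level and others lower. Kit, the receptor for stem cell factor, had 144.6 ± 17.9 and 152.2 ± 43.8 CPM, Hdc, the histamine-forming enzyme, 25.4 ± 1.95 and 25.6 ± 6.76, and Gata2, a factor of mast cell precursors, 1202 ± 199 and 1290 ± 95.6. The chymase Cma1 was at 245.4 ± 21.1 and 173.8 ± 58.3 CPM (-0.50, adjusted p = 0.142). Mcpt4 (-1.26, adjusted p = 0.056), Mrgprb2 (-1.03, adjusted p = 0.144) and Cd200r3 (-0.71, adjusted p = 0.143) were also lower without passing. Counts of falls rested on single libraries, with 1 without Arid3a-FLAG library 1, 2 without library 2, 10 without library 3, 3 without LUC library 1 or 3 and 8 without LUC library 2.

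**Figure D4:**
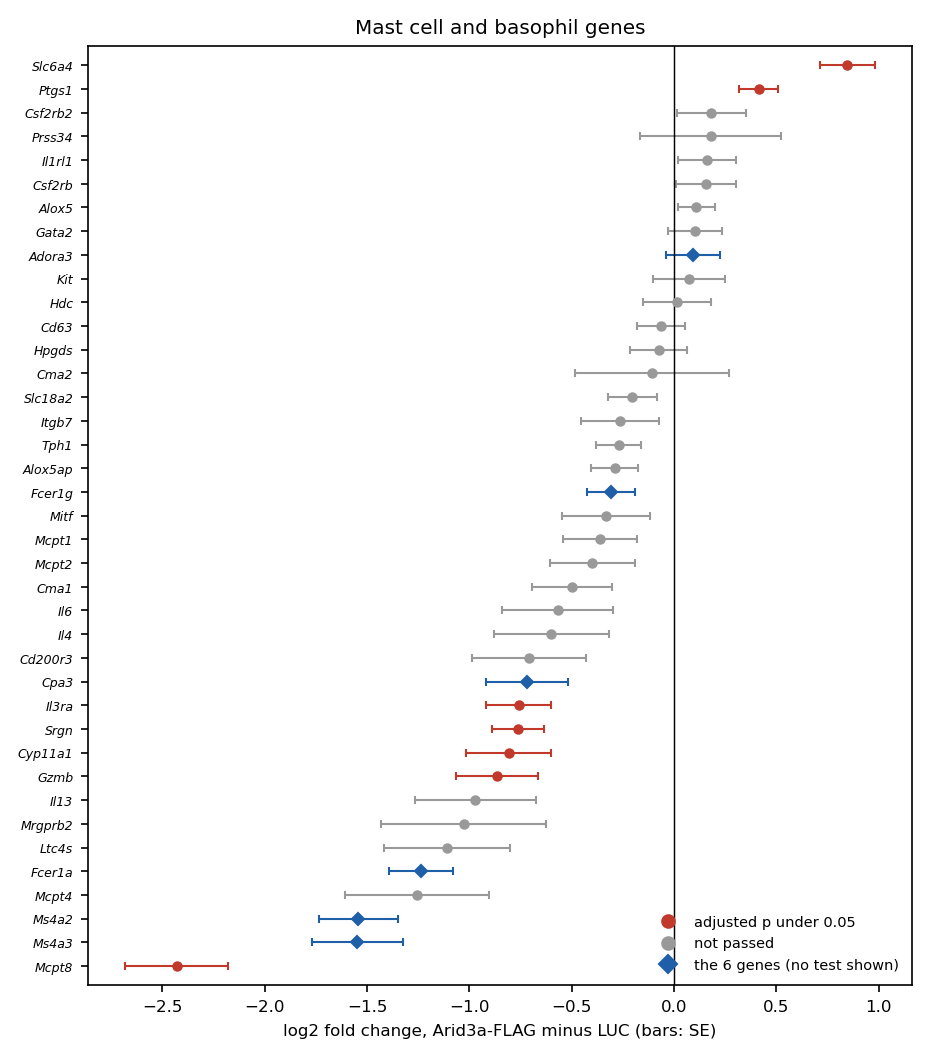
Log2 fold changes (Arid3a-FLAG minus LUC, bars SE) of 33 tested mast cell and basophil genes, with the 6 members as blue diamonds; red passed the adjusted threshold and grey did not. Fcer1a, Ms4a2 and Ms4a3 lie near the low end beside Mcpt8 and Mcpt4, Cpa3 and Fcer1g in between, and Adora3 near 0 with Kit and Hdc.

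The close relatives of Cpa3 and Adora3 gave few calls. Of 4 other tested carboxypeptidases none passed in edgeR with TMM (1, Ctsa, was lower at an unadjusted p under 0.05), and 1 was called lower by DESeq2, by edgeR with upper quartile factors and without LUC library 2, and Cpa1, Cpa4 and Cpa6 had 0 counts in every library. Of 10 other genes of adenosine receptors and handling, the nucleoside transporter Slc29a1 fell by 0.53 (adjusted p = 0.032) and its relative Slc29a3 rose by 0.46 (adjusted p = 0.040). Those calls were lost in 3 and 5 of 6 fits with 1 library left out. The other adenosine receptors did not pass: Adora2a had 30.6 ± 1.44 and 26.2 ± 1.91 CPM, Adora2b 25.7 ± 3.41 and 23.2 ± 1.47, and Adora1 had 0 counts. None of 18 factors reported at the Fcer1a or Ms4a2 promoters passed in edgeR with TMM and the default filter, though 4 were higher and 3 lower by unadjusted p under 0.05. Of these factors DESeq2 put 3 past the threshold, all higher, and limma-voom 1, also higher. In edgeR itself 3 were higher and 1 lower with no filter, and 1 was higher with RLE factors, library totals, the minimum of 5 CPM or the abundant genes removed. Elf1 (0.31), Pou2f1 (0.43), Stat5a (-0.32) and Spi1, which encodes PU.1 (-0.40), came closest, with adjusted p from 0.051 to 0.089. Gata1, the gene sgGata1 is named for, had 285.6 ± 29.0 and 325.8 ± 6.13 CPM (adjusted p = 0.249), and gene counts do not tell its edited transcripts from others. Without LUC library 2, 4 of these factors were higher and 2 lower past the threshold, without LUC library 3 1 was higher, and without Arid3a-FLAG library 3 1 was lower.

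Markers of cell types that could hold the receptor or its relatives were counted in the same fit. In that fit 3.43% of all tested genes were higher and 3.87% lower, and most marker lists had few tested genes. The 12 defining mast cell and basophil markers all belong also to the list of other mast cell and basophil genes above. Of these 12, 10 were tested and 1, Mcpt8, fell, which is the same call as there. With replicate number as a block 3 fell, and without Arid3a-FLAG library 3 4 fell. Their summed level was 776.5 to 900.1 CPM in LUC libraries and 589.9 to 909.3 with Arid3a-FLAG, so the groups overlapped. The largest parts of this sum were Il1rl1 (292.6 and 327.3 CPM on average), Cma1 and Kit, so it says little of the scarcer markers. Of the 10 tested, 6 had log2 fold changes below 0. The tryptases Tpsab1 and Tpsb2, markers of connective tissue mast cells, had at most 2 counts in a library. Neutrophil and granulocyte precursor markers summed to 21.2 to 23.6 and 11.0 to 25.0 CPM, with 3 of 14 tested and 2 lower, Ctsg (-1.31) and Prtn3 (-1.01). The third tested, Mpo, had 9.39 ± 0.520 and 8.81 ± 4.82 CPM and did not pass (-0.09, adjusted p = 0.873). It reached 14.4 CPM in Arid3a-FLAG library 3. Elane, at 0 to 6 counts per library, was not tested and averaged 0.297 and 0.0835 CPM. Eosinophil markers summed to 12.0 to 14.4 and 6.02 to 8.79 CPM, with Siglecf the 1 tested of 9 and lower (-0.85), and with Ear1, Ear2 and Ear6 at 0. Each of those 3 calls was lost in 3 of 6 fits with 1 library left out.

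Lymphoid and natural killer markers summed to 31.0 to 42.4 CPM with LUC and 7.33 to 8.79 with Arid3a-FLAG. Of 11, 3 were tested and 2 fell, Nkg7 (-2.90, adjusted p = 0.00010) and Il7r (-1.21), and Ms4a1 and Rag1 were at 0. Dropping a library ended the call of Il7r in 3 of 6 cases (adjusted p at most 0.076), and without Arid3a-FLAG library 3 all 3 fell. Monocyte and macrophage markers summed to 21.3 to 26.4 and 27.4 to 37.3 CPM, with 6 of 12 tested and 1, Csf1r, higher (1.59). Of those 6, 2 had log2 fold changes below 0. Ccr2 went from 4.86 ± 1.11 to 2.19 ± 1.26 CPM and did not pass (-1.15, adjusted p = 0.076). In this list 1 gene was called lower by DESeq2, with no filter, with replicate number as a block and without Arid3a-FLAG library 3. Megakaryocyte markers summed to 6062 to 7542 and 6472 to 6933 CPM, with 11 tested and Itgb3, Gp1bb and Gp9 higher. The other 8 did not pass, and 2 of the 11 had log2 fold changes below 0. Pf4, the largest part of this sum and named after its values were seen, was 1 of those 2. It had 3938 ± 914 and 3143 ± 158 CPM (-0.33, adjusted p = 0.231), so the sum says little of the scarcer markers. Erythroid markers summed to 193.2 to 247.6 and 276.9 to 365.0 CPM, with 7 of 9 tested, Hba-a1 and Hba-a2 higher and Slc4a1 at 0. The part of a change in cell makeup in the levels of the 6 genes was not tested.

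Genes with the pattern most like each chain were found by Pearson correlation of log2 CPM over the 6 libraries, among 9636 tested genes of at least 5 CPM. These are descriptions of the same 6 libraries. For Fcer1a the closest were Mcpt8 (r = 0.999), Anxa1, which encodes annexin A1 (0.998), Lsp1, an actin-binding leukocyte protein (0.997), and Adssl1, a purine synthesis enzyme (0.995). For Ms4a2 they were Haao, a tryptophan catabolism enzyme (0.995), Tespa1, a signalling protein first known from thymocytes (0.994), Cdc42se2, an effector of CDC42 (0.994), and the septin Sept1 (0.993). The size of the difference varied widely among them: Anxa1 went from 64.0 ± 7.54 to 28.5 ± 6.23 CPM, Tespa1 from 32.2 ± 3.97 to 11.0 ± 2.98 CPM, and Adssl1 from 38.5 ± 1.97 to 25.9 ± 2.37 CPM.

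The neighbours of Fcer1g in pattern were other genes. They were Trip10, an adaptor of membrane bending (r = 0.999), Alox5ap, the activating protein of leukotriene synthesis (0.992), the polycomb gene Phc2 (0.988) and Tmem120a (0.988). Each was highest in LUC library 2, as Fcer1g was, and none passed the test between groups. Fcer1a and its neighbours were also highest in LUC library 2. Fcer1g and its neighbours were, like the unique chains, highest of their group in Arid3a-FLAG library 3. Alox5ap stood at 79.2, 107.1 and 93.7 CPM in the LUC group and at 72.9, 74.3 and 81.6 CPM in the other.

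**Figure D5:**
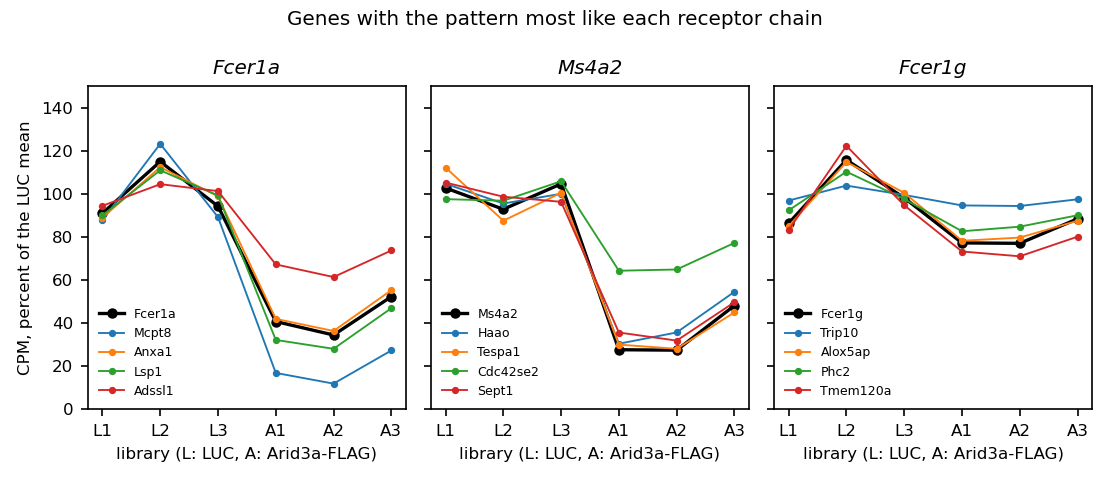
CPM of each receptor chain (black) and its 4 most alike genes as a percent of the LUC mean in the 6 libraries (L, LUC; A, Arid3a-FLAG); lines only join the points of a gene. Fcer1a, Ms4a2 and their neighbours lie lower in all Arid3a-FLAG libraries. Within that group every chain and its neighbours are highest in library 3. Fcer1g, Fcer1a and the neighbours of both peak in LUC library 2.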

How the data were processed

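Total RNA was isolated with a Zymo Research miniprep kit, and Illumina libraries were made from it, per the labels' protocols. The values used are raw read counts per gene deposited by the authors, not normalized. Named in the submitters' processing notes are fastp, HISAT2 2.0.5, featureCounts and mm10. Settings, annotation release and use of strand were not given in the sources used here. Columns were matched to samples by their descriptions, with no column left over. Gene symbols, positions and exon lengths were taken from GENCODE M21 (GRCm38, the assembly also called mm10) by Ensembl identifier, and 95 identifiers had no match. The construct entry entered neither library sizes nor tests. Totals of 15730908 to 18249053 counts limit precision mainly for genes with few counts, such as Ms4a3.

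The test was that of edgeR 4.0.16 (R 4.3.3): filterByExpr defaults, TMM factors and the quasi-likelihood F test with group as the only term, two-sided, with Benjamini-Hochberg adjustment over all 13631 tested genes and a threshold of 0.05. Adjusted p-values in the text are from this test. The SE of a log2 fold change is its size divided by the square root of F. The procedure was tested on simulated data. For alike patterns, log2 CPM used a prior count of 2.

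The members and the 17 gene lists were chosen with earlier results of these data known, the lists from general knowledge of the field. Members were left out of the lists. The result of 1 erythroid marker is not reported here. Named list genes are up to 6 per list with the smallest p, up to 3 a direction where both directions held calls, apart from those marked as named after their values were seen and those named to show that a marker is absent or low. Promoters of all 6 members were found by symbol in RefSeq's GRCm38.p6 table. Alternatives were RLE, upper quartile and unscaled library sizes, no filter, a minimum of 5 CPM in 3 libraries, limma-voom (limma 3.58.1), DESeq2 1.42.0, the replicate number as a block, removal of the 20 most abundant genes, a threshold of 0.01, and each library left out.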

Additional observations from a re-analysis of the deposited data

How the results depend on the processing

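No log2 fold change of the 6 genes changed sign under any alternative. Over all of them the log2 fold change was -1.86 to -1.40 for Ms4a2, -1.41 to -1.11 for Fcer1a, -0.38 to -0.18 for Fcer1g, -1.62 to -1.42 for Ms4a3, -1.03 to -0.55 for Cpa3 and 0.02 to 0.27 for Adora3. The log2 ratio to Fcer1g differed by -1.497 to -1.17 for Ms4a2, -1.05 to -0.84 for Fcer1a, -1.35 to -1.15 for Ms4a3, -0.66 to -0.32 for Cpa3 and 0.36 to 0.45 for Adora3. Between 2 and 4 members passed in the lower direction; Ms4a3 was removed by the filter of at least 5 CPM. Counts of calls moved more. An adjusted p under 0.01 left 125 genes higher and 137 lower, with 2 higher and 0 lower of the activating genes, 1 higher of the inhibitory genes, and 1 higher and 2 lower of the mast cell and basophil genes. Without a filter 869 genes were higher and 1076 lower, with 7 and 4 activating, 5 and 3 inhibitory, and 11 lower mast cell and basophil genes. DESeq2 called 733 genes higher, 4 activating genes lower, 4 inhibitory genes higher and 2 lower, and 8 mast cell and basophil genes lower. Upper quartile factors called 2 activating genes lower. With 1 library left out, 115 to 1191 genes were higher and 118 to 1095 lower; activating genes ranged from 2 to 11 higher and 0 to 4 lower, inhibitory genes from 1 to 5 higher and 1 to 3 lower, and mast cell and basophil genes from 1 to 2 higher and 1 to 10 lower. The most calls over the whole table came without LUC library 2. The replicate numbers did not pair the libraries: deviations of same-numbered libraries correlated at -0.084, -0.143 and 0.232, and 1 of 3 numbers correlated best with itself. With the replicate number as a block, 410 genes were higher and 530 lower, with 3 inhibitory genes lower and 8 mast cell and basophil genes lower. The cause of these moves was not tested. Depth limits Ms4a3 most, with 28 to 95 counts per library.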
